A study of Rattus norvegicus with 34 samples.

Results

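The 10 genes described here encode secreted chemokines of the CC and CXC families: Ccl2, Ccl3, Ccl4, Ccl5, Ccl7, Ccl12, Ccl20, Cxcl1, Cxcl2 and Cxcl10. They were found by gene symbol in the platform annotation of an Illumina RatRef-12 V1 bead array, where each had 1 probe, and they are 10 of the 21877 genes and unnamed probes tested. The arrays carried RNA of primary cortical neuron cultures from Hooded Wistar rat embryos, harvested at culture day 21, after an injury that the labels call mild or severe neurotrauma. Mild injury was sampled at 0, 8, 15, 24 and 48 h with 3 arrays a time. Severe injury was sampled at the same times, with 1 array at 0 h and 3 at every later time, and 6 arrays were controls. All groups, the controls included, were grown in the same serum-free neuron medium, and the labels name no transgene, drug or sorting. Per the labels' protocols, axon bundles were cut with a knife or stretched with puffs of oxygen, and the labels do not say which of these was the mild injury. Per the same protocols, 12 or more wells were pooled at each time and cultures came from 3 pregnancies. Which culture a numbered replicate came from is not stated, so the p-values rest on the spread between arrays alone, and that spread may be technical. The embryos' age is given as embryonic day 17 in the protocol and as gestation day 15 to 16 in the sample characteristics.

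Each deposited value is a linear ratio, an array's signal for a probe over the mean of 3 reference arrays. The 6 controls and the mild 0, 8, 15 and 24 h arrays (18 arrays) were divided by controls 1 to 3, and the mild 48 h arrays and all severe arrays (16 arrays) were divided by the 3 mild 48 h arrays. Levels were therefore compared only within these sets: mild arrays against controls 1 to 3, and severe arrays against mild 48 h. The mild 48 h arrays lay on chips 1, 2 and 4. Most severe arrays, among them all at 48 h, lay on chip 3, so chip and injury were largely confounded in that set. A ratio carries no signal level, and the second deposited table, of scanner signals, was not used for levels here. Which probes were above background was therefore not examined. Nor was one chemokine's level set against another's, and the neuronal label was not checked from marker levels. The 2 deposited tables list 18 arrays in different orders. If the order of the second table were the right one, the arrays labelled mild 48 h would be controls 4 to 6, those labelled controls 4 to 6 would be mild 0 h, and each mild array from 0 to 24 h would belong to the next later time. Every group name below is the deposited label, and only controls 1 to 3 and the severe arrays keep their name in both orders. Arrays of a time did not always resemble each other: over all features, 2 of 12 severe 8 to 48 h arrays and 4 of the 18 control and mild 0 to 24 h arrays correlated best with an array of their own group.

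Chemokines are small secreted proteins that bind G protein-coupled receptors on leukocytes and guide their migration along a gradient. In the injured brain they are made mostly by microglia, astrocytes and vessel-associated cells, and neurons can make some of them too. Transcription of many of them is switched on within hours through NF-κB, which lies downstream of interleukin-1, tumour necrosis factor and Toll-like receptors, while a subgroup that includes Cxcl10 also responds to interferons through STAT and IRF factors. In bulk RNA of a mixed culture, fewer cells of a type and less RNA per cell cannot be told apart.

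On the rat assembly GRCr8, no protein-coding gene lies between Ccl2 and Ccl7, and 1 (Ccl11) lies between Ccl7 and Ccl12. Ccl3 and Ccl4 are direct neighbours, with Ccl5 separated from Ccl3 by 2 genes on the same chromosome (10). Cxcl1 and Cxcl2 are direct neighbours on chromosome 14, which also holds Cxcl10, and Ccl20 stands alone on chromosome 9. RefSeq's promoter table for GRCr8 held 6 of the 10 genes, and the 250 bases before the start used in that table are shown for 5 of them. They were chosen because Ccl7, Ccl20 and Cxcl1 had high ratios in the same mild arrays, Cxcl2 lies beside Cxcl1 but stayed near 1, and Cxcl10 had the highest ratios of the severe arrays. Each is written 5′ to 3′ on the gene's own strand. Capitals mark matches to 3 motifs: the NF-κB consensus on either strand, an interferon-response core (GAAA, any 2 bases, GAAA) on either strand, and TATAAA on the gene's strand.
Ccl7 (GRCr8, chr10:67513845-67514094, plus strand): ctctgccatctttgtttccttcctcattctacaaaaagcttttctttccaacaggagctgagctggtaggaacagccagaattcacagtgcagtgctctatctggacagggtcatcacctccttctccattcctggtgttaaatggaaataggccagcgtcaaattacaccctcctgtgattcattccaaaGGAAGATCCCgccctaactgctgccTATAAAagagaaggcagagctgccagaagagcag
Ccl20 (GRCr8, chr9:91836909-91837158, plus strand): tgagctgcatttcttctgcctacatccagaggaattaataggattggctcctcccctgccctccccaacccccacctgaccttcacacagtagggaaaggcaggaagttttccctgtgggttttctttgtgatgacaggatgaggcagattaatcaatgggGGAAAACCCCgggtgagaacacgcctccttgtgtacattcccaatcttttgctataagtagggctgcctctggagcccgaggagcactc
Cxcl1 (GRCr8, chr14:17479322-17479571, minus strand): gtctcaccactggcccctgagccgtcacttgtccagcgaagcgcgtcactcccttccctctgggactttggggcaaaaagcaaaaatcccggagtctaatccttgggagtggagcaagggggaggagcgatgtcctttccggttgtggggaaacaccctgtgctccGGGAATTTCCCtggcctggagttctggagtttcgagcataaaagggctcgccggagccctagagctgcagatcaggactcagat
Cxcl2 (GRCr8, chr14:17467256-17467505, minus strand): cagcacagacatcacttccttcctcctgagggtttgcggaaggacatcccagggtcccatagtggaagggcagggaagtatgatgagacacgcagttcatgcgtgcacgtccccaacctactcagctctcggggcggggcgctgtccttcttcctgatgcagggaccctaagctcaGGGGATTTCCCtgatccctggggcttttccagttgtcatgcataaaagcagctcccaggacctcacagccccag
Cxcl10 (GRCr8, chr14:15988816-15989065, plus strand): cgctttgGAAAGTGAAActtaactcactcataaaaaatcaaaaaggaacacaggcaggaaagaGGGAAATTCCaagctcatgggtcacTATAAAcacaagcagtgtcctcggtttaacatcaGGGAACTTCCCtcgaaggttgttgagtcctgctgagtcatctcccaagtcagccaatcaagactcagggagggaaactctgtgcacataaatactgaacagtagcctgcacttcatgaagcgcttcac

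Ccl7 held 1 NF-κB match 59 to 50 bases before the start, and Ccl20 held 1 at 89 to 80 bases. For Ccl20 the bases count from the start in the promoter table. The gene itself is annotated from 91837139, so the end of its window lies inside the gene. Cxcl1 and Cxcl2 each held 2 overlapping matches (one on each strand in Cxcl1, both on the gene's strand in Cxcl2), at 84 to 74 bases and at 74 to 64 bases. Cxcl10 held 3, of which 2 overlap, and it alone among the 6 promoters held the interferon-response core, at 243 to 234 bases. Ccl12, not shown, held TATAAA only. Of all 33469 promoters of this length in the table, 6.33% held the NF-κB consensus, 3.41% the interferon-response core and 8.06% TATAAA. A match is a description of the letters and was not tested as a site.

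After mild injury, 2 chemokines passed the test at 8 h against controls 1 to 3: Ccl12, a monocyte attractant of the Ccl2 family known best from mice, rose 1.99-fold, and Ccl4, also called MIP-1β, rose 1.51-fold. In that comparison 0.119% of all features were called: 0.0868% rose and 0.032% fell (19 and 7, or 10 and 23 with each array centred on housekeeping genes; limma, adjusted p under 0.05). Ccl20, the ligand of Ccr6, had the largest difference of the 10 at 8 h, 12.2-fold, but its spread over the set was wide and it did not pass. By 24 h no chemokine passed, and the ratios of all 10 were between 0.891 and 1.39. The plot of the control and mild arrays shows these values array by array.

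**Figure D1:**
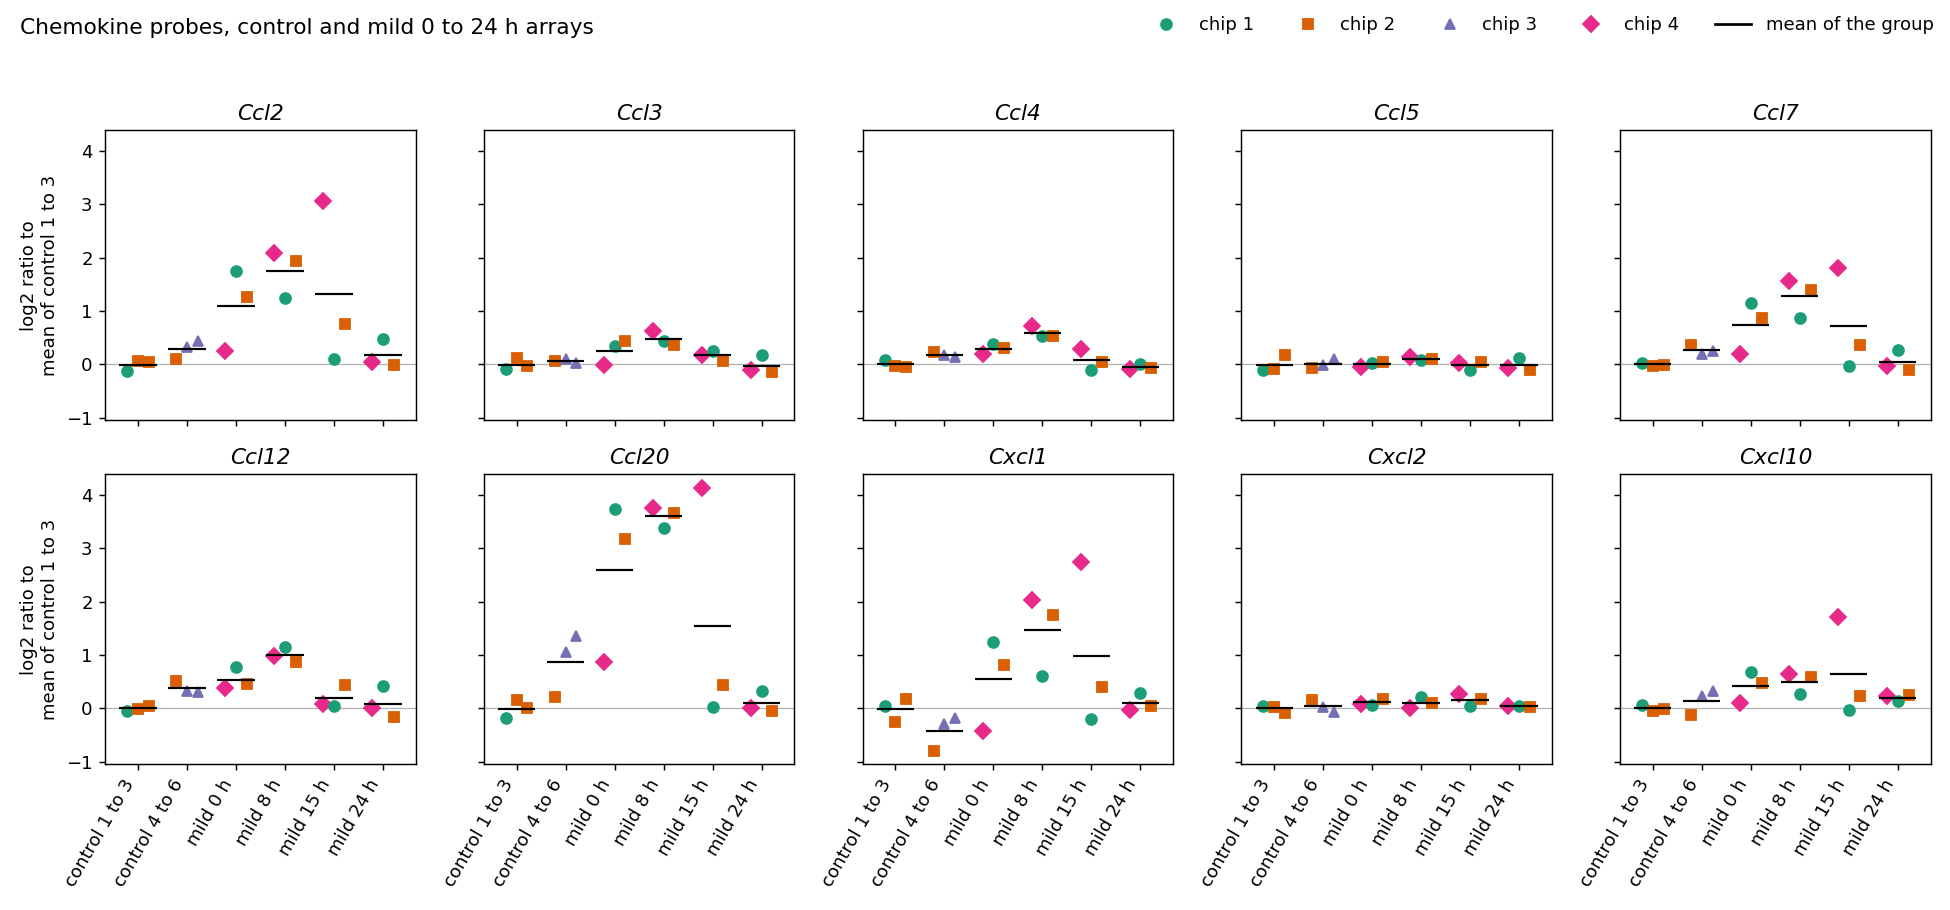
Log2 ratio of each chemokine probe (y axis, over the mean of controls 1 to 3) in the 6 control arrays and the 12 mild 0 to 24 h arrays (x axis, by group); each point is 1 array, its colour and shape give the chip, and the bar is the group mean. Ccl2, Ccl7, Ccl20 and Cxcl1 are high in 2 of 3 mild 0 h arrays, all 3 mild 8 h arrays and 1 of 3 mild 15 h arrays, and near 0 in the mild 24 h arrays.

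The monocyte attractants Ccl2, Ccl7 and Ccl12 act largely through Ccr2, the receptor that draws monocytes out of the blood. Ccl2 had ratios of 1.19, 3.35 and 2.39 at mild 0 h, 4.22, 2.37 and 3.83 at 8 h, 8.39, 1.07 and 1.70 at 15 h, and 1.03, 1.39 and 0.993 at 24 h, against 0.92, 1.05 and 1.03 in controls 1 to 3. All 3 arrays at 0, 8 and 15 h were above all 3 controls, but within 0 h and within 15 h the arrays differed widely. The log2 difference of Ccl2 was 1.09 ± 0.49 (SE) at 0 h, 1.76 ± 0.49 at 8 h, 1.31 ± 0.49 at 15 h and 0.17 ± 0.49 at 24 h (n = 3 each), and none passed (adjusted p = 0.212, 0.162, 0.866 and 0.927, limma). Ccl7 had ratios of 1.15, 2.23 and 1.83 at mild 0 h, 2.95, 1.83 and 2.63 at 8 h, 3.48, 0.985 and 1.28 at 15 h, and 0.974, 1.2 and 0.934 at 24 h, against 1.02, 0.985 and 0.992 in controls 1 to 3. The array with the highest Ccl2, mild 15 h replicate 1, was also the highest for Ccl7, and the 2 other arrays of that time were near the controls. At 8 h the Ccl7 difference of 1.28 ± 0.32 had an adjusted p of 0.112.

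Ccl12 had less spread. Its ratios were 1.30, 1.71 and 1.37 at mild 0 h, 1.97, 2.21 and 1.82 at 8 h, 1.06, 1.04 and 1.36 at 15 h, and 1.01, 1.34 and 0.891 at 24 h, against 0.971, 0.995 and 1.03 in controls 1 to 3. The 8 h arrays stood above every control and above every other mild array. The difference was 0.54 ± 0.14 at 0 h (adjusted p = 0.0339) and 1.00 ± 0.14 at 8 h (adjusted p = 0.00519, limma), and it was 0.19 ± 0.14 at 15 h and 0.09 ± 0.14 at 24 h, where it did not pass. At 0 h, 4.78% of features were called: 4.61% rose and 0.165% fell (1009 and 36, or 84 and 6938 with housekeeping centring and 23 and 11 with quantile normalization), and Ccl12 was the 1 member called. The 0 h call was lost in 11 of the 14 alternatives run (adjusted p from 0.0251 to 0.961), among them leaving out mild 0 h replicate 2, which left a difference of 0.42 with an adjusted p of 0.245. The 8 h call held without each array in turn (adjusted p between 0.013 and 0.0494), with the chip as a block (1.02 ± 0.13, adjusted p = 0.0191), and within chips 1 and 2 the difference was 1.19 and 0.84. It was lost in 2 of 14 alternatives: when all 6 controls were the comparison group (0.80 ± 0.14, adjusted p = 0.182) and when all 34 arrays shared 1 estimate of the spread (adjusted p = 0.618). In both, 0 features passed at mild 8 h.

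Ccl20 attracts Ccr6-bearing dendritic cells and lymphocytes, and the human gene is a known target of NF-κB. Its ratios were 1.83, 13.4 and 9.0 at mild 0 h, 13.6, 10.4 and 12.7 at 8 h, 17.6, 1.02 and 1.36 at 15 h, and 1.00, 1.26 and 0.966 at 24 h, against 0.883, 1.11 and 1.00 in controls 1 to 3. The 3 arrays at 8 h were alike, and at 0 and 15 h the arrays split into high and near-control values. Controls 4 to 6 had 1.16, 2.08 and 2.55. The log2 difference was 3.61 ± 0.76 at 8 h (adjusted p = 0.066) and 2.60 ± 0.76 at 0 h (adjusted p = 0.0557), so neither passed in limma's fit on all 18 arrays. Its SD within groups was 1.15 log2 units, against a median of 0.10 over all features, and the fit pools this spread over groups. With only the 3 mild 8 h arrays and controls 1 to 3 in the fit, an alternative chosen after seeing the data, the SE was 0.11 and the adjusted p 1.32e-08. Centring on housekeeping genes also moved the 8 h difference past the threshold (3.48 ± 0.66, adjusted p = 0.0234), as did quantile normalization (1.83 ± 0.35, adjusted p = 0.0398). Within chip 1 the 8 h array exceeded the control by 3.56 log2 units, and within chip 2 by 3.59.

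Ccl3, Ccl4 and Ccl5 are made by activated microglia and macrophages, among other cells. Ccl4 had ratios of 1.15, 1.30 and 1.24 at mild 0 h, 1.65, 1.44 and 1.44 at 8 h, 1.22, 0.933 and 1.03 at 15 h, and 0.939, 1.01 and 0.952 at 24 h, against 1.06, 0.978 and 0.966 in controls 1 to 3. The 0 h and 8 h arrays were all above the controls, with 8 h highest. The 8 h difference was 0.59 ± 0.09 (adjusted p = 0.00762, limma). It did not pass in 7 of 14 alternatives, among them the chip as a block (0.56 ± 0.09, adjusted p = 0.0576), housekeeping centring (0.47 ± 0.13, adjusted p = 0.239), all 34 arrays in the fit (adjusted p = 0.697), and the fits without mild 8 h replicate 1 (0.53, adjusted p = 0.0594), without control replicate 3 (0.57, adjusted p = 0.0706) or with all 6 controls (0.50, adjusted p = 0.127). Ccl3, also called MIP-1α, had ratios of 1.54, 1.35 and 1.29 at 8 h, against 0.945, 1.08 and 0.975 in controls 1 to 3, a difference of 0.48 ± 0.11 that did not pass (adjusted p = 0.0778). Ccl5 (RANTES), an attractant of T cells and monocytes that is also induced by interferon, stayed between 0.925 and 1.10 in all 12 mild arrays, against 0.925 to 1.13 in controls 1 to 3, and no difference passed.

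The CXC chemokines Cxcl1 and Cxcl2 attract neutrophils through Cxcr2, and Cxcl10 attracts activated T cells through Cxcr3. Cxcl1 had ratios of 0.743, 2.37 and 1.76 at mild 0 h, 4.09, 1.52 and 3.37 at 8 h, 6.70, 0.876 and 1.33 at 15 h, and 0.982, 1.22 and 1.03 at 24 h, against 1.03, 0.833 and 1.14 in controls 1 to 3. The 8 h arrays were all above the controls, but the difference of 1.48 ± 0.54 did not pass (adjusted p = 0.296). Its neighbour Cxcl2 ranged from 1.01 to 1.21 in the 12 mild arrays, against 0.948 to 1.03 in controls 1 to 3, and no difference passed. Cxcl10 had 1.56, 1.2 and 1.5 at 8 h, against 1.05, 0.963 and 0.990 in controls 1 to 3, and its highest mild value was 3.29 in replicate 1 at 15 h, the array with the highest Ccl2. At 8 h the difference of Cxcl10 was 0.50 ± 0.29 and did not pass (adjusted p = 0.557).

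Counted over the list, all 3 arrays were above controls 1 to 3 for 7 of 10 chemokines at mild 0 h (15.5% of all features), 8 at 8 h (12.8%), 2 at 15 h (5.41%) and 1 at 24 h (8.28%). No chemokine lay wholly below, against 4.64%, 4.46%, 3.16% and 3.25% of features. The median difference over the 10 was 0.48, 0.79, 0.42 and 0.07 log2 units at 0, 8, 15 and 24 h, and over all features it was 0.03, 0.02, 0.01 and 0.04. With housekeeping centring the chemokine medians were 0.19, 0.67, 0.35 and -0.11, and those of all features -0.25, -0.10, -0.05 and -0.14. With only the compared arrays in the fit, 8 of the 10 and 169 features in all passed at mild 8 h, the exceptions being Ccl5 and Cxcl2. At 15 h and at 24 h 0 features passed (0.0%), while 1155 and 1917 had an unadjusted p under 0.05 in limma, among them 4 and 0 chemokines. The change over the 4 mild times was tested as 1 F test on the 18 arrays, free of the controls' level. It passed for 2.06% of features, and Ccl4 (adjusted p = 0.00644) and Ccl12 (adjusted p = 0.00858) were the 2 chemokines among them. For both it held without each array in turn and with the chip as a block (adjusted p = 0.0184 for each). Among the alternatives that ended the call were all 34 arrays in the fit (adjusted p = 0.575 and 0.67) and, for Ccl12, quantile normalization (adjusted p = 0.0584). Ccl20 (adjusted p = 0.0587) and Ccl3 (0.0652) did not pass.

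Controls 4 to 6 differed from controls 1 to 3, with 11.5% of features called higher and 0.311% lower (2520 and 68), with housekeeping centring 147 higher and 12177 lower, and with quantile normalization 8 and 10. None of the 10 chemokines passed, and 2 had an unadjusted p under 0.05 in limma, against 25.8% of all features. In 5 of the 10 (24.5% of features), Ccl2, Ccl4, Ccl7, Ccl12 and Ccl20, controls 4 to 6 were all above controls 1 to 3, and no chemokine lay wholly below (5.49% of features). The median difference of the 10 was 0.17, and -0.17 with housekeeping centring. The closest to the threshold was Ccl12, with ratios of 1.43, 1.25 and 1.24 in controls 4 to 6, against 0.971, 0.995 and 1.03 in controls 1 to 3 (0.39 ± 0.14, adjusted p = 0.0702). These arrays would be mild 0 h arrays in the other order of the labels.

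Some cell type marker lists also lay above controls 1 to 3, in mild arrays or in controls 4 to 6. No gene of these lists passed at mild 8, 15 or 24 h. Over the 17 measured microglia and macrophage genes, the mean log2 ratio per array was between 0.47 and 0.69 at mild 8 h, against -0.12 to 0.11 in controls 1 to 3, and it was 0.39 to 0.56 in controls 4 to 6. None of the 17 passed at mild 8 h, and 10 had an unadjusted p under 0.05 in limma, against 10.9% of all features. The list's median difference was 0.63, against 0.02 over all features. For controls 4 to 6, where 11.5% of all features rose and 0.311% fell, 6 of the 17 rose. They were led by the complement genes C1qb (1.16 ± 0.31, adjusted p = 0.0246) and C1qc (1.11 ± 0.26, adjusted p = 0.0138) and the lysosomal Cd68 (1.09 ± 0.26, adjusted p = 0.0153). With housekeeping centring these 3 differences were 0.82, 0.77 and 0.76. In the same comparison 5 of 9 fibroblast and meningeal genes rose and 1 fell (median 0.53, or 0.19 with housekeeping centring), led by Lum, a proteoglycan of the matrix (0.80 ± 0.17, adjusted p = 0.0107). Of 11 neuronal genes 3 rose (median 0.27, or -0.07 with housekeeping centring), led by Map2, a microtubule-associated protein of dendrites (0.57 ± 0.17, adjusted p = 0.0355). At mild 0 h, where 4.61% of all features rose, so did 2 fibroblast and meningeal genes (Lum and Col6a1) and 2 neuronal genes (Map2 and Tubb3). The list medians were 0.28 and 0.25, or -0.01 and -0.04 with housekeeping centring. The part of these cells in the chemokine ratios was not tested. The 9 fibroblast and meningeal genes had a mean of 0.23 to 0.31 at mild 8 h, against -0.32 to 0.17 in controls 1 to 3. Astrocyte genes (9) had -0.02 to 0.04, against -0.17 to 0.09.

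Of the genes that switch chemokines on, Il1b, the cytokine interleukin-1β, was the 1 of 22 inducing cytokines and receptors past the test at mild 8 h. Its ratios lay between 1.78 and 2.25 at mild 8 h, against 0.988 to 1.02 in controls 1 to 3 (0.95 ± 0.18, adjusted p = 0.0403). Tnf lay between 0.978 and 1.15 and Il6 between 0.923 and 1.06 at that time, against 0.986 to 1.02 and 0.951 to 1.04 in controls 1 to 3. No NF-κB gene (20), interferon signalling gene (23), chemokine receptor (19) or other chemokine (22) passed at mild 8 h. An unadjusted p under 0.05 in limma was reached by 11, 9, 0 and 7 of them, and by 10.9% of all features. At mild 0 h, Cxcl13, a B cell attractant, rose among the other chemokines (0.51 ± 0.14, adjusted p = 0.0432) and Nfkbib, an inhibitor of NF-κB, among the NF-κB genes (0.44 ± 0.09, adjusted p = 0.0213). Both were also called in controls 4 to 6 against controls 1 to 3, at 0.52 and 0.42. With housekeeping centring Cxcl13 differed by 0.23 at mild 0 h and 0.19 in controls 4 to 6, and Nfkbib by 0.15 and 0.08.

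**Figure D2:**
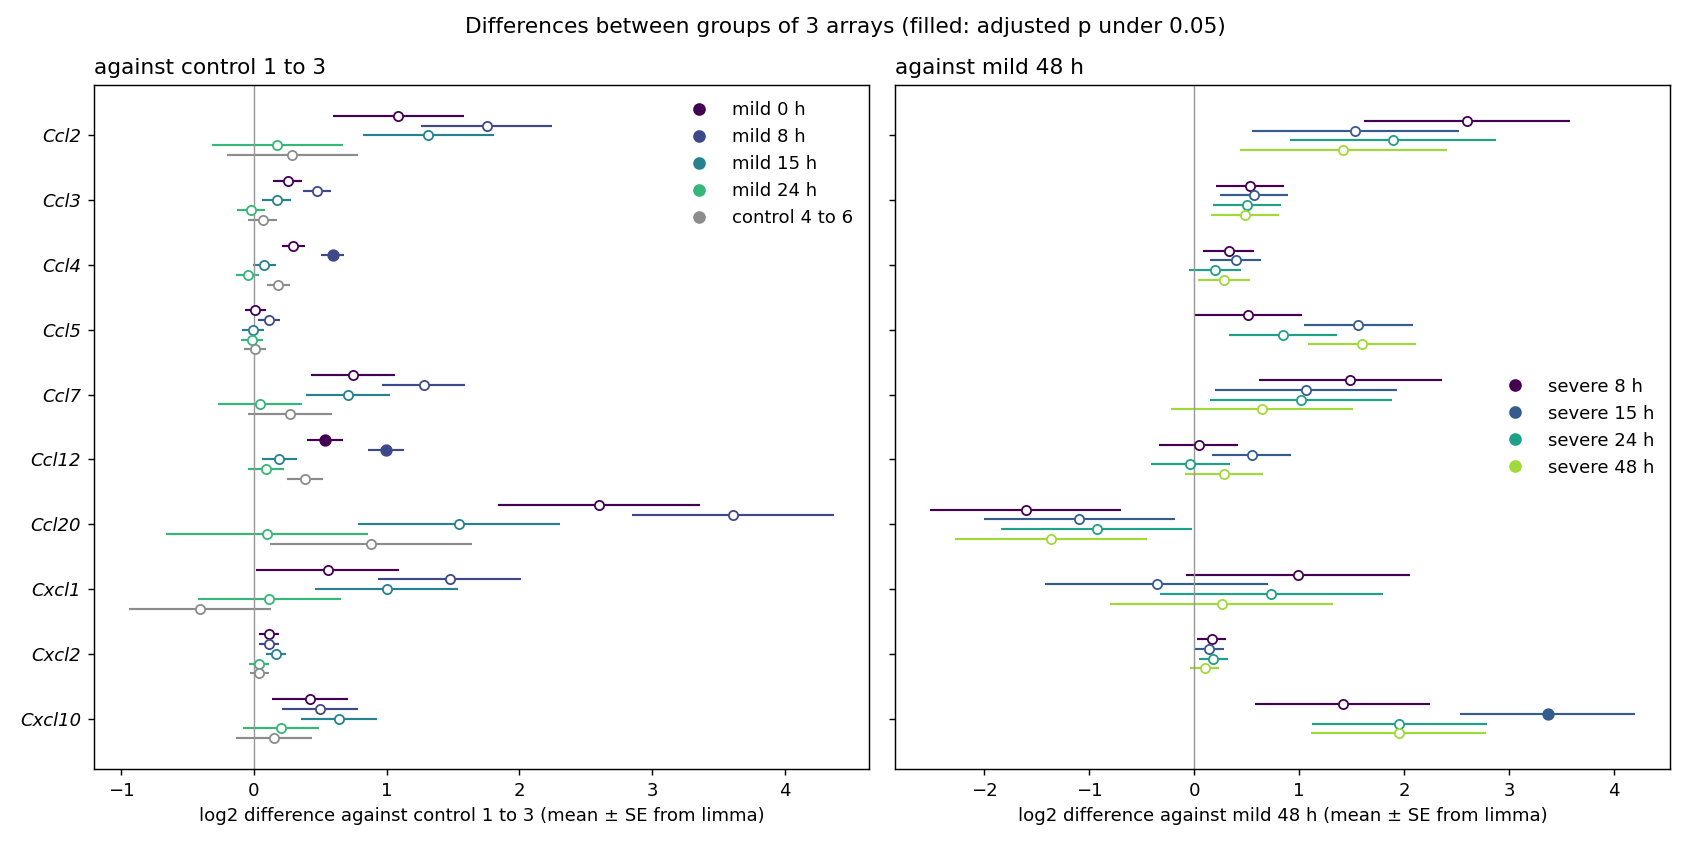
Log2 difference ± SE (limma) of each chemokine: left, the mild 0, 8, 15 and 24 h arrays and controls 4 to 6 (grey) against controls 1 to 3; right, the severe 8, 15, 24 and 48 h arrays against mild 48 h, with 3 arrays per group and filled points past adjusted p of 0.05. Filled points are Ccl4 and Ccl12 at mild 8 h, Ccl12 at mild 0 h and Cxcl10 at severe 15 h.

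Severe arrays were set against mild 48 h arrays, labelled as injured, since no control shares their divisor. Here rose and fell mean higher and lower than mild 48 h, not a measured change from uninjured cultures. Cxcl10, the interferon-inducible T cell attractant, was the 1 chemokine past the test, and at 1 time. It was 10.3-fold higher at severe 15 h than at mild 48 h, where 4.43% of features rose and 6.39% fell (970 and 1398, or 1478 and 1144 with housekeeping centring). Its change over the severe times did not pass (adjusted p = 0.983, limma F test). Ccl2 was above mild 48 h in every severe array, by up to 20.1-fold in a single array, but varied so widely between arrays of a time that no difference passed. Ccl20 had ratios between 0.168 and 1.06 in 12 of the 13 severe arrays and no difference passed. At 8, 24 and 48 h no chemokine passed, while 8.61%, 9.21% and 11.2% of all features did. An unadjusted p under 0.05 in limma was reached by 1, 1 and 2 of the 10 chemokines at these times. It was reached by 3892, 4349 and 4820 of the 21877 features. At 8 h 3.46% of features rose and 5.14% fell (758 and 1125, or 1183 and 1018 with housekeeping centring). At 24 h 2.85% rose and 6.36% fell (624 and 1391, or 1115 and 1216). At 48 h 3.45% rose and 7.78% fell (754 and 1703, or 1900 and 995). In 1 array of that time, severe 48 h replicate 2, 9.87% of features had a ratio below 0.5. In the other severe arrays that share was between 2.1% and 3.77%. With the chip as a block, fewer features passed: 815, 965, 907 and 907 at 8, 15, 24 and 48 h.

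**Figure D3:**
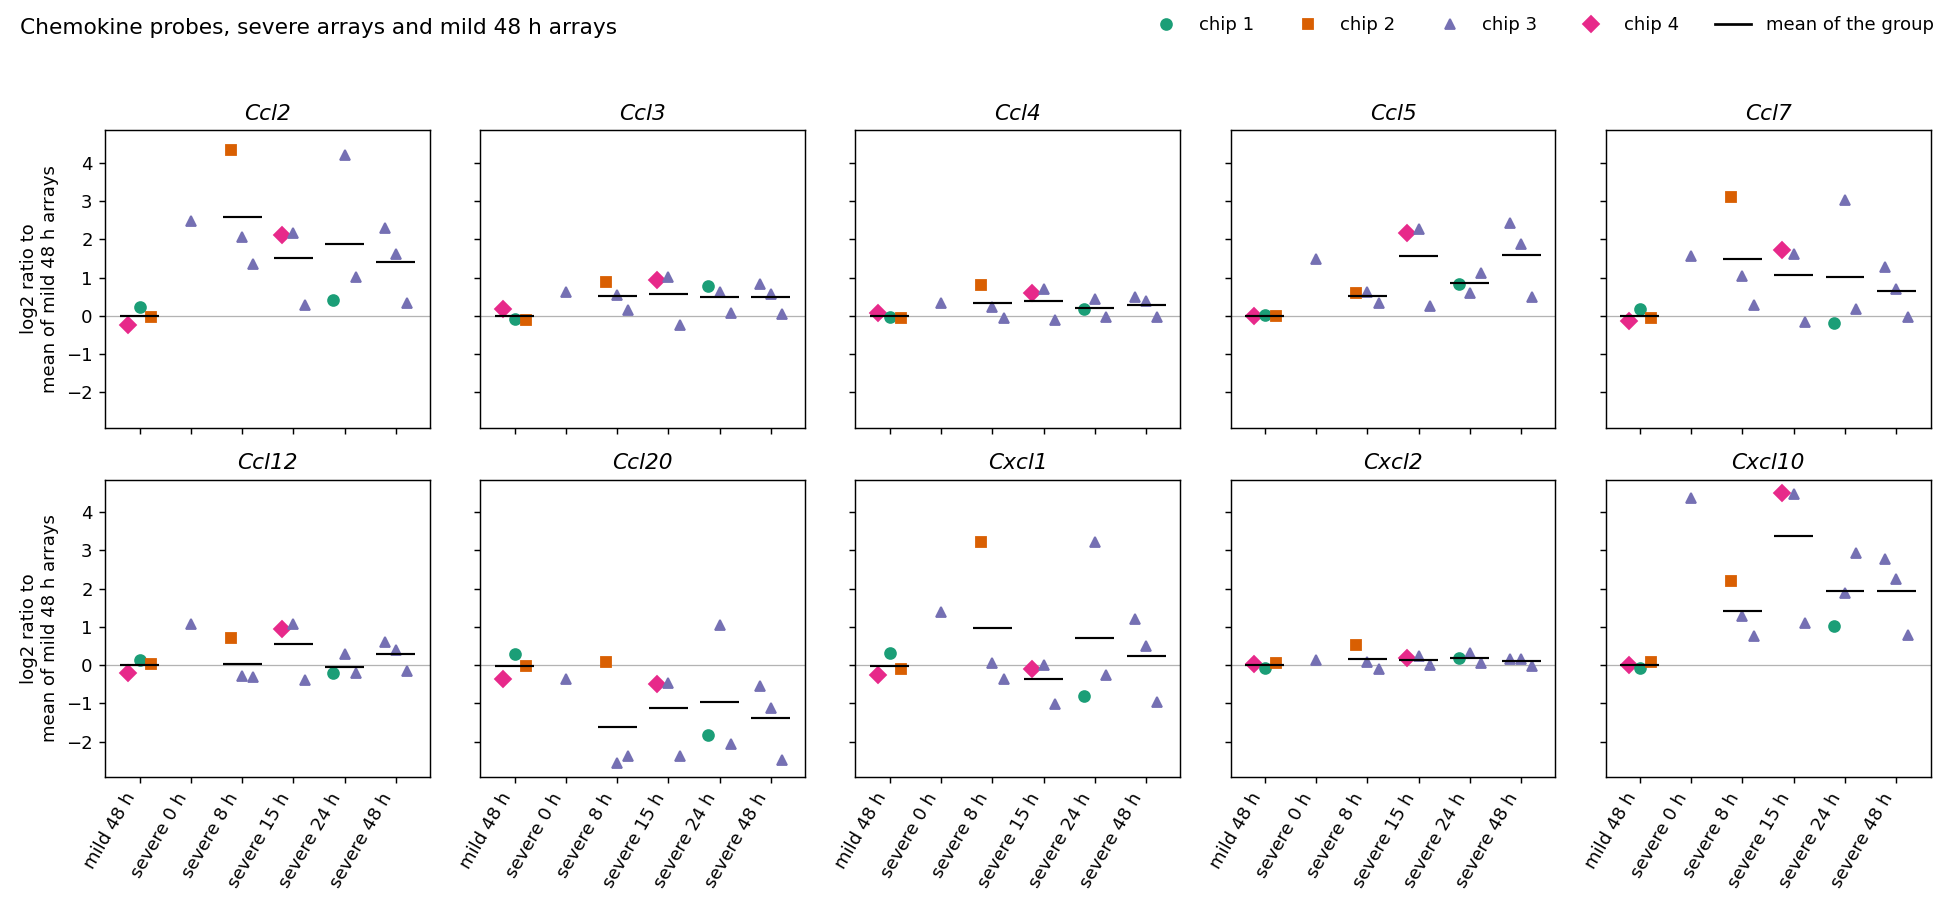
Log2 ratio of each chemokine probe (y axis, over the mean of the arrays labelled mild 48 h) in the 3 mild 48 h arrays, the 1 severe 0 h array and the 12 severe 8 to 48 h arrays (x axis, by group); each point is 1 array, its colour and shape give the chip, and the bar is the mean of 3 arrays. Cxcl10 is highest in the severe 0 h array (20.7) and 2 of the 3 severe 15 h arrays (22.6 and 22.4), and Ccl2 in 1 array each of severe 8 h (20.1) and 24 h (18.6).

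Cxcl10 had a ratio of 20.7 in the 1 severe 0 h array, 4.59, 2.44 and 1.70 at 8 h, 22.6, 22.4 and 2.17 at 15 h, 2.05, 3.68 and 7.69 at 24 h, and 6.90, 4.77 and 1.74 at 48 h, against 1.00, 0.945 and 1.06 at mild 48 h. All 13 severe arrays were above the mild 48 h arrays, and 2 of 3 arrays at 15 h stood far above the third. The log2 difference was 1.42 ± 0.83 at 8 h, 3.37 ± 0.83 at 15 h, 1.95 ± 0.83 at 24 h and 1.95 ± 0.83 at 48 h (adjusted p = 0.459, 0.0203, 0.207 and 0.189, limma). Without severe 15 h replicate 3 the 15 h difference was 4.49 ± 0.61 (adjusted p = 0.000875). Leaving out any other of the 6 arrays compared ended the call (adjusted p between 0.0627 and 0.0967), as did the chip as a block (3.54 ± 1.05, adjusted p = 0.109) and quantile normalization (2.74 ± 0.76, adjusted p = 0.0533). At other times Cxcl10 passed with all 34 arrays in the fit (24 h, adjusted p = 0.0344, and 48 h, 0.0305), with housekeeping centring (48 h, 0.047) and with only the compared arrays (8 h, 0.0262, and 24 h, 0.0284). Within chip 4, the 1 chip that holds both groups, the severe 15 h array exceeded the mild 48 h array by 4.50 log2 units. The features most like Cxcl10 over the 16 arrays, by Pearson correlation of log2 ratios, were Oas1a (0.972), Herc6 (0.972) and LOC497812 (0.969); the points share 1 divisor, and a correlation over arrays of several groups is a description.

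Ccl5 had a ratio of 2.80 at severe 0 h, 1.51, 1.53 and 1.26 at 8 h, 4.51, 4.83 and 1.19 at 15 h, 1.79, 1.5 and 2.18 at 24 h, and 5.40, 3.68 and 1.40 at 48 h, against 0.989, 1.01 and 1.00 at mild 48 h. As for Cxcl10, every severe array was above the mild 48 h arrays, and the third array at 8, 15 and 48 h was the lowest of its time. The differences of 1.57 ± 0.52 at 15 h and 1.60 ± 0.52 at 48 h did not pass (adjusted p = 0.0785 and 0.0708, limma). They passed with all 34 arrays in 1 fit (adjusted p = 0.00262 and 0.00202), with centring on housekeeping genes (0.0276 and 0.0103), and without replicate 3 of the time concerned (0.00557 and 0.00897). With only the compared arrays, Ccl5 passed at 8 and 24 h instead (0.0079 and 0.00736), and not at 15 or 48 h (0.0716 and 0.137, limma). Ccl3 and Ccl4 varied less. Ccl3 had 1.54 at severe 0 h, 1.85, 1.46 and 1.11 at 8 h, 1.90, 2.01 and 0.853 at 15 h, 1.72, 1.55 and 1.05 at 24 h and 1.79, 1.48 and 1.03 at 48 h, against 1.12, 0.948 and 0.931 at mild 48 h. In each severe time, replicates 1 and 2 of Ccl3 were above mild 48 h and replicate 3 was lower than both. Ccl4 ranged from 0.93 to 1.76 over the 13 severe arrays, against 0.969 to 1.05 at mild 48 h.

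Ccl2 had a ratio of 5.55 at severe 0 h, 20.1, 4.19 and 2.58 at 8 h, 4.33, 4.51 and 1.21 at 15 h, 1.34, 18.6 and 2.01 at 24 h, and 4.89, 3.07 and 1.25 at 48 h, against 0.847, 1.17 and 0.982 at mild 48 h. Severe 8 h replicate 1 and severe 24 h replicate 2 stood far above the other arrays of their times. The differences were 2.60 ± 0.98 at 8 h, 1.54 ± 0.98 at 15 h, 1.89 ± 0.98 at 24 h and 1.42 ± 0.98 at 48 h, and none passed (adjusted p = 0.158, 0.44, 0.329 and 0.469, limma). At 8 h it passed with all 34 arrays in 1 fit (adjusted p = 0.0287), with housekeeping centring (0.0499) and with only the compared arrays (0.0457), and without replicate 1 the difference was 1.73 (adjusted p = 0.467). The same 2 arrays were the highest for Ccl7 (8.69 and 8.24, against 0.878 to 3.30 in the other 11 severe arrays and 0.915 to 1.12 at mild 48 h) and for Cxcl1 (9.29 and 9.37, against 0.49 to 2.62 and 0.833 to 1.24). These 2 arrays were also each other's nearest array over all features (Pearson r = 0.772). Ccl12 ranged from 0.757 to 2.12 over the severe arrays, against 0.875 to 1.10 at mild 48 h, with arrays both above and below at 8, 15 and 24 h.

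Ccl20 had a ratio of 0.783 at severe 0 h, 1.06, 0.168 and 0.191 at 8 h, 0.713, 0.722 and 0.191 at 15 h, 0.279, 2.08 and 0.238 at 24 h, and 0.685, 0.457 and 0.178 at 48 h, against 0.78, 1.23 and 0.991 at mild 48 h. At 15 and 48 h all 3 arrays were below mild 48 h, and the 1 severe array above it was severe 24 h replicate 2, which also had high Ccl2. The differences ranged from -1.60 ± 0.91 at 8 h to -0.93 ± 0.91 at 24 h and none passed (adjusted p between 0.436 and 0.67, limma). Cxcl2 lay between 0.925 and 1.45 in the severe arrays, against 0.944 to 1.04 at mild 48 h, and no difference passed.

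All 3 severe arrays were above mild 48 h for 4 chemokines at 8 h (Ccl2, Ccl5, Ccl7 and Cxcl10; 15.2% of all features), 3 at 15 h (Ccl2, Ccl5 and Cxcl10; 16.2%), 4 at 24 h (Ccl2, Ccl5, Cxcl2 and Cxcl10; 15.6%) and 3 at 48 h (Ccl2, Ccl5 and Cxcl10; 10.4%). Ccl20 was the 1 chemokine wholly below, at 15 h (16.2%) and 48 h (14.8%). The median difference of the 10 was 0.52, 0.56, 0.62 and 0.39 at 8, 15, 24 and 48 h, against 0.01, 0.00, 0.02 and 0.00 over all features. The 4 comparisons share the same 3 mild 48 h arrays, so their directions are not independent of each other. The change over the 4 severe times passed for 0 features (0.0%) in limma, and 808 features but no chemokine had an unadjusted p under 0.05.

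The mild and the severe time courses were compared as the change over 8, 15 and 24 h, where the divisor of each set cancels. No feature passed this test (0.0%), and 1045 features, 2 of them chemokines, had an unadjusted p under 0.05 in limma. The different rank of the genes after the 2 injuries, with Ccl20 high in mild arrays and Cxcl10 and Ccl5 high in severe ones, is thus a description of ratios to different arrays and not a tested difference.

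Ccl2 and Ccl7, neighbours in the genome, had a Pearson correlation of log2 ratios of 0.971 over the 16 arrays divided by mild 48 h and 0.98 over the 18 arrays divided by controls 1 to 3. The neighbours Ccl3 and Ccl4 had 0.918 and 0.799, and the neighbours Cxcl1 and Cxcl2 had 0.748 and 0.409. High correlation was not limited to neighbours: Ccl2 and Cxcl1, on different chromosomes, had 0.869 and 0.948. Cxcl10 and Ccl5 had 0.86 over the 16 arrays and 0.284 over the 18. These pairs were picked after their values were seen, and arrays in a set share a divisor. By the same rank of correlation as for Cxcl10, the features most like Ccl4 over the 18 arrays were Rac2 (0.938), Ncf1 (0.936) and Ptpn6 (0.917), and those most like Ccl12 were Lcp1 (0.909), Clec4a3 (0.902) and Rac2 (0.902).

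**Figure D4:**
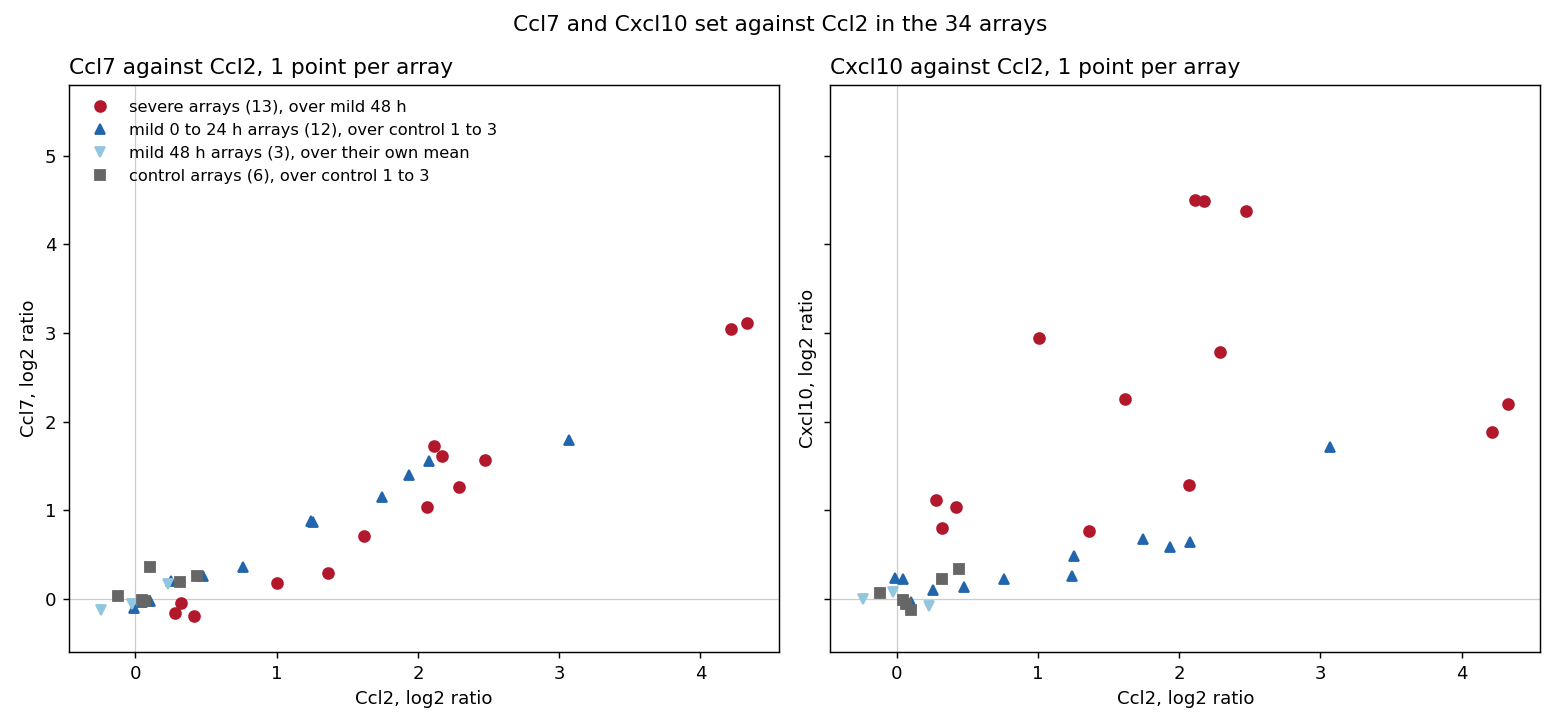
Log2 ratio of Ccl7 (left) and Cxcl10 (right) on the y axis against that of Ccl2 on the x axis, 1 point for each of the 34 arrays, with severe, mild 0 to 24 h, mild 48 h and control arrays marked. Ccl7 follows Ccl2 in both sets (r = 0.971 over 16 and 0.98 over 18 arrays), while the 3 arrays with the highest Cxcl10 ratios (20.7 to 22.6) are not the 2 with the highest Ccl2 (20.1 and 18.6).

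Of the interferon signalling genes, 3 of 23 rose and 1 fell at severe 8 h, 8 rose at 15 h, 4 at 24 h and 4 at 48 h, with list medians of 0.06, 0.15, 0.10 and 0.14. Of all features 3.46%, 4.43%, 2.85% and 3.45% rose at these times, and with housekeeping centring the list median at 48 h was 0.42. Gbp2, an interferon-induced GTPase, was called at each time, with ratios of 15.7 at severe 0 h, 11.3 to 23.6 at 8 h, 13.6 to 24.4 at 15 h, 13.4 to 15.0 at 24 h and 9.97 to 19.3 at 48 h, against 0.912 to 1.07 at mild 48 h. The antiviral Mx1 rose by 3.51 ± 0.77 at 15 h (adjusted p = 0.0107). Over the same severe arrays Cxcl10 ranged from 1.70 to 22.6.

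Among the 22 other chemokines, 2 rose and 1 fell at severe 8 h, 2 rose and 2 fell at 15 h, 1 fell at 24 h, and 1 rose and 1 fell at 48 h, where 8.61%, 10.8%, 9.21% and 11.2% of all features were called. Cxcl11, like Cxcl10 a ligand of Cxcr3, rose by 2.39 ± 0.61 at 8 h (adjusted p = 0.0287) and 2.59 ± 0.61 at 15 h (adjusted p = 0.0154). The third Cxcr3 ligand, Cxcl9, had ratios of 1.22 to 4.94 at 15 h, against 0.973 to 1.02 at mild 48 h. Cxcl12, which retains Cxcr4-bearing cells, fell by 0.86 ± 0.18 at 8 h (adjusted p = 0.0103), and its receptors moved apart: Cxcr4 rose by 1.65 ± 0.36 (adjusted p = 0.0114) and Ackr3 fell by 0.70 ± 0.11 (adjusted p = 0.00102). Cxcr4 and Ackr3 were the 2 of 19 receptors called at each severe time.

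Among the 20 NF-κB genes, Icam1, an adhesion molecule for leukocytes, fell by 0.91 to 1.19 and Ptgs2, the inducible cyclooxygenase, by 1.84 to 2.69 over the 4 severe times, and Nfkbib rose by 0.64 to 0.83. At 15 h Vcam1, another leukocyte adhesion molecule, rose by 1.74 ± 0.41 (adjusted p = 0.0156) and the mitochondrial superoxide dismutase Sod2 by 0.90 ± 0.24 (adjusted p = 0.0313). Thus 3 genes of the list rose and 2 fell at that time, where 4.43% of all features rose and 6.39% fell. Of the 22 inducing cytokines and receptors, Il18 rose at each time, by 0.94 to 1.18, and Ifngr2, a chain of the interferon-γ receptor, fell at 15, 24 and 48 h. No other gene of that list was called. Of all features 8.61%, 10.8%, 9.21% and 11.2% were called at the 4 times, so the list was not called more often than features at large. Tnf lay between 0.921 and 1.07 over the severe arrays, against 0.941 to 1.12 at mild 48 h. Il1b ranged from 0.858 to 2.61, against 0.927 to 1.06, and did not pass.

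Several marker lists of other cell types differed between severe and mild 48 h arrays. Of all features 3.46%, 4.43%, 2.85% and 3.45% rose at 8, 15, 24 and 48 h, and 5.14%, 6.39%, 6.36% and 7.78% fell. Of 9 fibroblast and meningeal genes, 7, 7, 8 and 9 fell at 8, 15, 24 and 48 h, and their mean log2 ratio was between -4.06 and -2.42 in all 13 severe arrays, against -0.05 to 0.02 at mild 48 h. Of 9 astrocyte genes, 6 rose at each time, with means between 0.38 and 1.57, against -0.04 to 0.03, and of 8 oligodendrocyte genes 3 or 4 rose. None of the 17 microglia and macrophage genes was called at any severe time (1 or 2 had an unadjusted p under 0.05 in limma), and their mean ranged from -0.82 to 0.46 in severe arrays, against -0.04 to 0.02. Of 11 neuronal genes, 1 fell at 15 h and 2 at 48 h, with list medians of -0.01, -1.20, -0.43 and -1.30 at 8, 15, 24 and 48 h. Their mean log2 ratio was between -1.76 and 0.28 in the severe arrays, against -0.03 to 0.03 at mild 48 h. Of 6 endothelial genes, Cldn5, a tight junction protein, fell at each time, by 0.29 to 0.42, and the list's median difference lay between -0.04 and 0.02. With housekeeping centring the difference of Cldn5 at 48 h was -0.08 and the list's median 0.30. At the mild times 0 of these 6 passed and 0 had an unadjusted p under 0.05 in limma. These lists moved with the severe groups, and their part in the chemokine ratios was not tested.

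**Figure D5:**
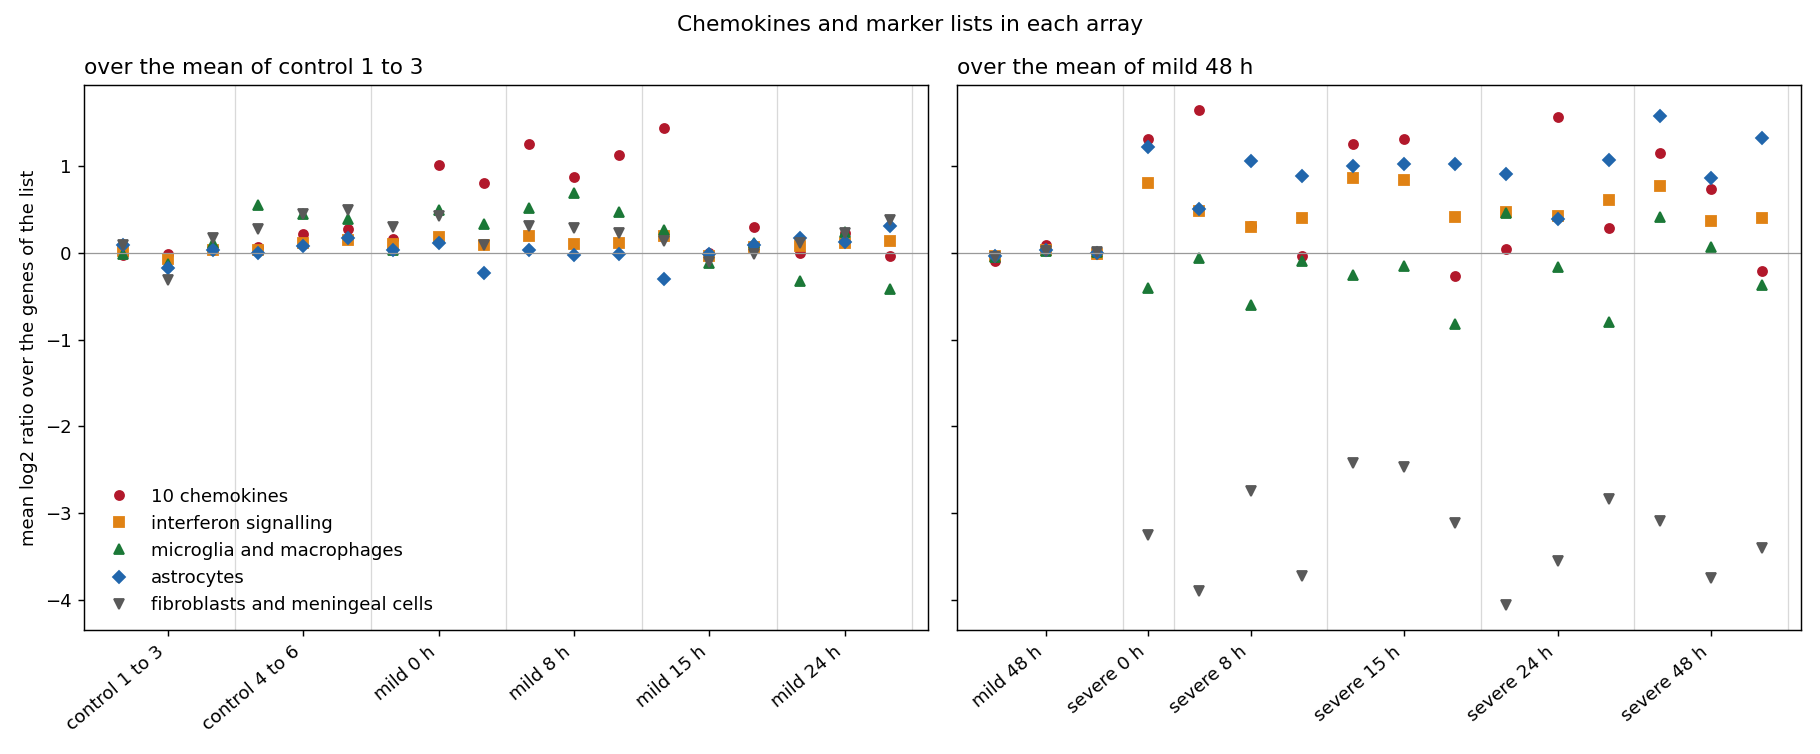
Mean log2 ratio over the 10 chemokines and over 4 gene lists (y axis) in each array (x axis, by group); left, control and mild 0 to 24 h arrays over the mean of controls 1 to 3, right, mild 48 h and severe arrays over the mean of mild 48 h. The fibroblast and meningeal list lies between -4.06 and -2.42 in the severe arrays, and the chemokine mean spans -0.27 to 1.65 there.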

How the data were processed

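The authors deposited 1 linear ratio per probe and array for 22226 probes of the Illumina RatRef-12 V1 array and 34 arrays. Tested on the values, signals were scaled to the median of their own array and then divided, probe by probe, by the mean of 3 arrays: of 5984 possible triples, 2 averaged 1 at every probe (within 0.0001), namely controls 1 to 3 and mild 48 h. Software, background correction and filters are not given in the sources used here, and the depth of signal over background is unknown, so the number of arrays limits the precision. The second deposited table, of scanner signals, has 34 columns whose names match no sample's labels. By their values these columns were matched to the ratio columns. They were read only to find how the ratios were made and the order of the arrays. That order differs for 18 arrays, so the labels of all mild arrays and of controls 4 to 6 are uncertain.

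Log2 ratios were used as deposited. Probes were named from the platform annotation (13192), RefSeq accession (363) or the deposited description (3704 and 4862), 105 had no name, and probes of the 341 genes with several were averaged, which gave 21877 features. Each set (18 and 16 arrays) was fitted with 1 mean per group in limma 3.58.1 under R 4.3.3 (lmFit, eBayes, two-sided), with Benjamini-Hochberg adjustment over all features and a threshold of 0.05. Differences are injured minus comparison group. The severe 0 h array was given as a value. Alternatives were all 34 arrays in 1 fit, the chip or the replicate number as a block, quantile normalization, centring on 174 housekeeping genes (ribosomal, proteasome and oxidative phosphorylation), single probes, all 6 controls, each array left out and, chosen after seeing the data, only the compared arrays. The scripts were tested on simulated data. Named were all 10 chemokines, the up to 4 largest called differences of each of 11 further lists, and the 3 features most like a called chemokine, with exceptions marked in the text. A few list genes were also named by their ranges (Tnf, Il6, Cxcl9, Il1b), and Nfkbib at severe 15 h was not among the largest 4. The chemokines and the lists were chosen with earlier results of these data known.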

Additional observations from a re-analysis of the deposited data

How the results depend on the processing

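Over 120 chemokine results (10 genes in 12 comparisons) and 1820 alternative values, 1746 kept their direction and side of the threshold, 32 lost a call, 41 gained one and 1 reversed: Ccl5 in controls 4 to 6 against controls 1 to 3 was -0.33 with housekeeping centring. Of the 6 calls, that of Ccl12 at mild 8 h was lost in 2 of 14 alternatives, and those of Ccl4 at mild 8 h, Ccl12 at mild 0 h and Cxcl10 at severe 15 h in 7 of 14, 11 of 14 and 7 of 13. The cause of these losses was not tested, except that fewer arrays were compared where 1 was left out. Signal over background was not examined, so it is not known here which ratios near 1 come from probes near background. Background correction and a filter on dim probes were not run. The scanner columns carry no sample names, and they were matched to the ratio columns by value alone.

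Counts of features past adjusted p of 0.05 in limma were 1045 for mild 0 h, 26 for mild 8 h, 0 for mild 15 h, 0 for mild 24 h, 2588 for controls 4 to 6, 451 for the mild change, 1883 for severe 8 h, 2368 for severe 15 h, 2015 for severe 24 h, 2457 for severe 48 h, 0 for the severe change, 0 for the severe by mild change. With all 34 arrays in 1 fit they were 1 for mild 0 h, 0 for mild 8 h, 6 for controls 4 to 6, 10 for the mild change, 3055 for severe 8 h, 3796 for severe 15 h, 3316 for severe 24 h and 3890 for severe 48 h. With the chip as a block they were 163 for mild 0 h, 7 for mild 8 h, 6 for controls 4 to 6, 230 for the mild change, 815 for severe 8 h, 965 for severe 15 h, 907 for severe 24 h and 907 for severe 48 h. Quantile normalization gave 34 for mild 0 h, 18 for controls 4 to 6, 1420 for severe 15 h, 1228 for severe 48 h and 17 for the severe by mild change. Housekeeping centring gave 7022 for mild 0 h, 12324 for controls 4 to 6, 1 for the severe change and 3 for the severe by mild change. With all 6 controls as the comparison group they were 0 for mild 0 h and 0 for mild 8 h. With only the compared arrays, chosen after seeing the data, they were 8 for mild 0 h, 169 for mild 8 h, 3107 for severe 8 h, 3981 for severe 15 h, 1483 for severe 48 h and 1 for the severe by mild change. Leaving out 1 array at a time gave 11 to 2366 for mild 0 h, 3 to 14 for mild 8 h, 0 to 1 for mild 15 h, 122 to 3410 for controls 4 to 6, 145 to 810 for the mild change, 1172 to 1516 for severe 8 h, 1572 to 2062 for severe 15 h, 1308 to 1994 for severe 24 h, 1717 to 3268 for severe 48 h and 0 to 9 for the severe by mild change; it gave 0 for mild 24 h and for the severe change.

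Same-numbered arrays of different groups deviated together (correlation over 0.1) in 6 of 30 pairs of the 18-array set and 9 of 30 of the 16-array set, so the replicate numbers were not taken to pair the arrays. With the replicate block, the count of features called was 6 for mild 0 h, 3 for mild 8 h and 13 for the mild change. Under it Ccl4 at mild 8 h was no longer called (adjusted p = 0.0901), nor was Ccl12 at mild 0 h (0.0926) or the mild change of Ccl4 and Ccl12 (0.0563 each), and Ccl5 at severe 48 h was called (0.0488). It changed no other chemokine call and could not be fitted for controls 4 to 6.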

Other observations

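The high ratios of Ccl20 and Ccl2 in the set divided by controls 1 to 3 lay in 6 arrays that stand side by side in the deposited ratio table, at places 8 to 13. These are mild 0 h replicates 2 and 3, mild 8 h replicates 1 to 3 and mild 15 h replicate 1. In these 6 arrays between 2 and 5 of the 10 chemokines had a ratio above 2, and 0 or 1 in the other 12 arrays of the set. The 6 were picked by Ccl20 and Ccl2, which are above 2 in each of them. A count of at least 2 was therefore fixed by that choice and is no separate evidence. Over all features, 0.0411% to 0.293% were above 2 in the 6 arrays, and 0% to 0.0686% in the other 12. The 6 arrays lie on chips 1, 2 and 4, as do the other mild arrays.

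In the severe set, replicate 3 at 8, 15 and 48 h had the lowest Ccl2, Ccl3, Ccl4, Ccl5, Ccl7, Ccl12, Cxcl1, Cxcl2 and Cxcl10 ratio of its time. In these arrays 1, 1 and 0 of the 10 chemokines were above 2. Of all features 2.92%, 2.88% and 3.45% were above 2 there, the highest such shares of their times. Severe 48 h replicate 3 and severe 8 h replicate 3 were also each other's nearest array over all features (Pearson r = 0.718). All 3 of these replicate 3 arrays lie on chip 3, as do replicate 2 at 8 and 15 h and replicates 1 and 2 at 48 h.

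In the 1 severe 0 h array, 2.34% of all features were above 2. So were 6 of the 10 chemokines: Cxcl10 (20.7), Ccl2 (5.55), Ccl7 (2.96), Ccl5 (2.80), Cxcl1 (2.62) and Ccl12 (2.11). This array was nearest to severe 15 h replicate 2 (Pearson r = 0.582). With 1 array there is no replicate check.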
